A study of Mus musculus with 17 samples.

Results

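Lungs of wild-type mice were compared 7 h after intravenous LPS (n = 3) and 22 h after intravenous saline (n = 4). These 7 of the 17 arrays of the series were chosen by their labels, 1 array per mouse, and 22626 probe sets naming 12393 genes were tested. All were male C57BL/6J mice bought from a vendor, with ages not stated in the sources used here, and LPS (lipopolysaccharide, the cell wall endotoxin of Gram-negative bacteria, here from Escherichia coli O111:B4) was given at 20 mg/kg in the same volume of saline that control mice received. The series also holds 3 wild-type lungs taken 22 h after LPS, and lungs labelled NOS2-/-, from mice bred without the inducible nitric oxide synthase, of which 1 was taken at 22 h from a saline mouse and 3 at each of 7 h and 22 h from LPS mice. No saline mice were taken at 7 h, so that LPS and the time of harvest cannot be told apart in the comparison. The material was whole lung, in which fewer cells of a type and less RNA per cell cannot be told apart. The study sought lung genes whose response to endotoxin depends on NOS2 and could bear on hypoxic pulmonary vasoconstriction, the narrowing of lung vessels in poorly ventilated regions.

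LPS is held by the carrier protein Lbp and by Cd14 and is recognised by the receptor pair Tlr4 and Ly96, which signals through Myd88 to the transcription factor NF-kB and through a second branch to interferon regulatory factors. NF-kB turns on cytokines, chemokines and its own inhibitors, while secreted interferons act through STAT factors on antiviral genes and guanylate-binding proteins. In lung the endothelium that lines the dense capillary bed is in direct contact with injected LPS, and neutrophils held in these capillaries are a known feature of endotoxemia.

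The arrays measured lung tissue in both groups. The surfactant protein gene Sftpc, a marker of alveolar type 2 cells, lay at 14.81 to 14.88 in saline mice and 14.59 to 14.67 after LPS, near the top of the log2 scale, and Scgb1a1 of airway club cells lay at 14.74 to 14.89 and 14.70 to 14.76. Correlations between arrays were 0.992 to 0.996 within the saline mice, 0.997 to 0.998 within the LPS mice at 7 h and 0.941 to 0.951 between these groups. An array of the wild-type LPS mice at 22 h (replicate 2) stood apart, with correlations down to 0.949 with its own group, so the counts and named genes of the comparisons with 22 h are given with and without it. The single NOS2-/- saline lung also stood apart, with the skeletal muscle actin Acta1 at 11.89 and the squamous keratin Krt4 at 14.21, against 6.48 to 6.81 and 8.26 to 8.65 in the wild-type saline mice.

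In limma's test 1805 genes were higher and 2554 lower 7 h after LPS at an adjusted p under 0.05, which is 14.6% and 20.6% of the 12393 genes. At the level of probe sets 3257 (14.4%) were higher and 4052 (17.9%) lower. Rises were larger than falls. The median log2 difference of the genes called was 0.63 for rises and -0.47 for falls, at least 2-fold rises were found for 515 genes and at least 2-fold falls for 320, and changes of at least 8-fold for 62 and 7 genes. At a 3-fold rise or a fall to 0.3-fold, 268 genes (2.16%) were higher and 63 (0.508%) lower, and all of these were also called by limma. The LPS and saline groups did not overlap for 19.8% of genes on the higher side and 32.6% on the lower side. The shares called, 14.6% and 20.6%, are the background for the counts of lists below. The median log2 difference over all genes was -0.066.

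**Figure D1:**
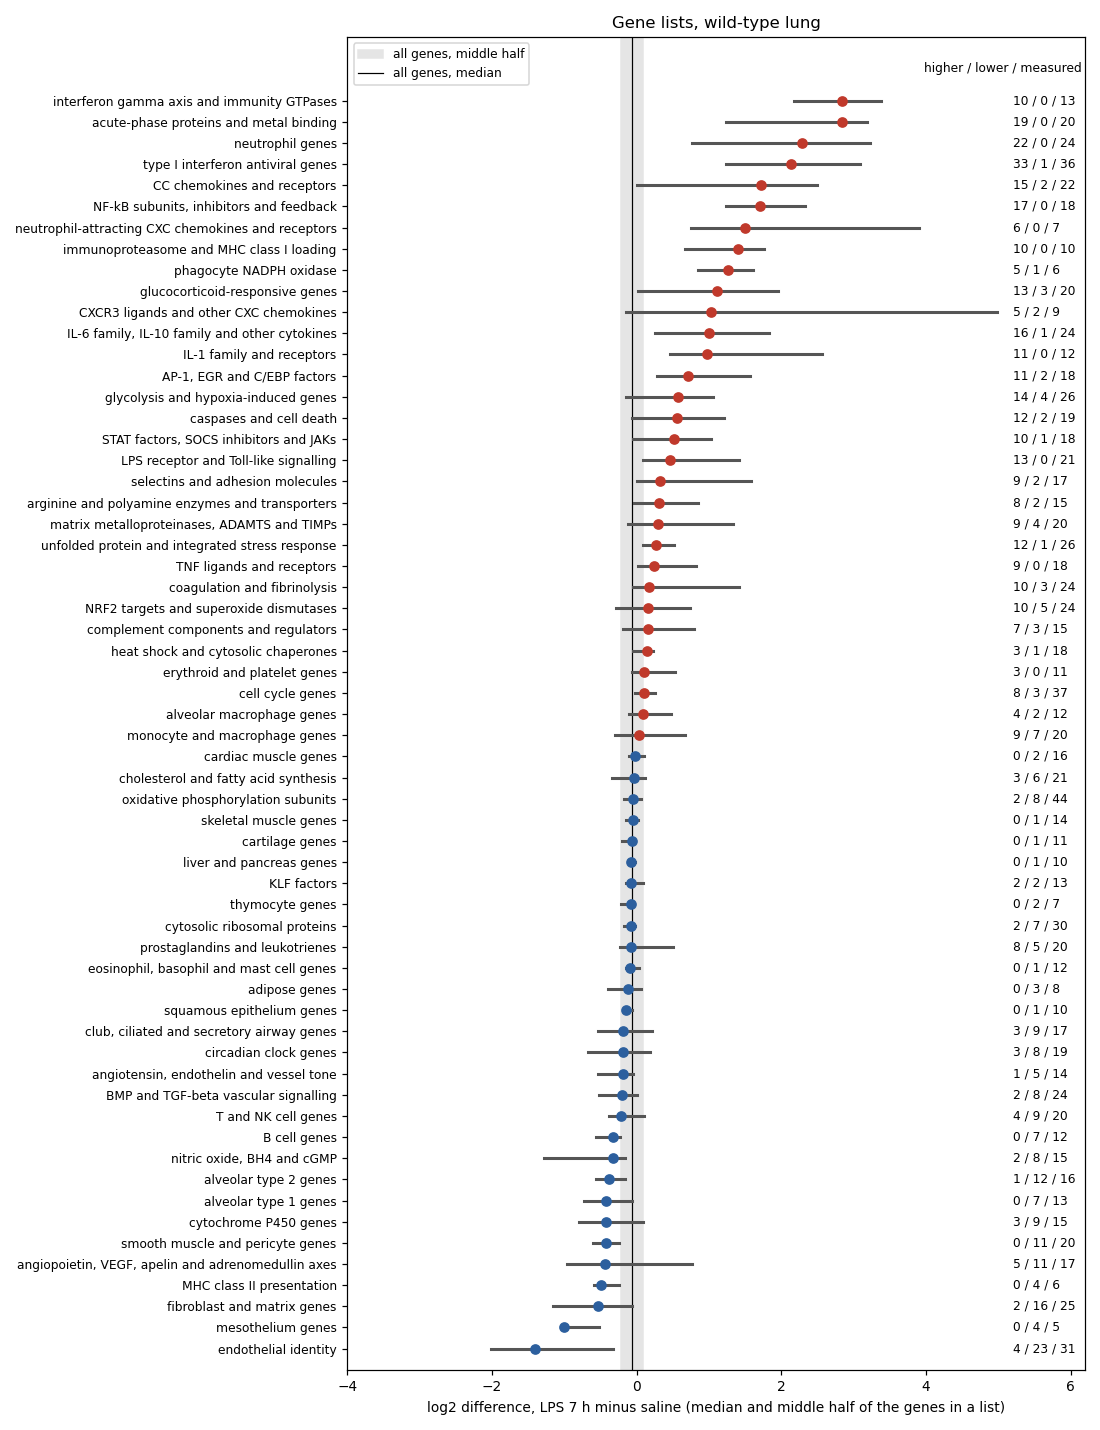
Median log2 difference (point) and middle part of the genes between the lower and upper quartile (line) for each gene list with at least 5 genes measured, LPS at 7 h minus saline in wild-type lung, with the numbers of genes higher, lower and measured at the right. Lists of interferon, acute-phase and neutrophil genes lie farthest to the right, endothelial genes farthest to the left, and all genes together lie at a median of -0.066.

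The stretches of promoter printed here belong to genes that rose together. They are from RefSeq on GRCm38.p6, 100 bases each, read 5′ to 3′ on the strand of the gene, with matches to a motif in capitals, and were chosen after the matches were seen. For NF-kB the letters GGG, any 2 bases and TTTCC were searched on both strands of the 300 bases around each gene start (250 before, 50 after), and 512 of 27025 genes with a promoter in the table (1.89%) hold them. For the interferon-stimulated response element the letters GAAA, any 2 bases and GAAA were searched in the same way, and 1079 genes (3.99%) hold them. A match describes the sequence and does not show binding, and the motifs do not overlap in these windows. The first set, with NF-kB matches, belongs to the neutrophil chemokines Cxcl1 (chr5:90891129-90891228, plus strand) and Cxcl2 (chr5:90903776-90903875, plus strand), the cytokine Il6 (chr5:30013014-30013113, plus strand) and the NF-kB inhibitor Nfkbia (chr12:55492648-55492747, minus strand).
Cxcl1: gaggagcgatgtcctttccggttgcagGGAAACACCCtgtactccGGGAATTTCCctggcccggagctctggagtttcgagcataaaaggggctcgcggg
Cxcl2: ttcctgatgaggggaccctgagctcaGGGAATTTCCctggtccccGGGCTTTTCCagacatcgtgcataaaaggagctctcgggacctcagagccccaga
Il6: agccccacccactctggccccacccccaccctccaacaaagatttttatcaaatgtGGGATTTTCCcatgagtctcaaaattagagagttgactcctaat
Nfkbia: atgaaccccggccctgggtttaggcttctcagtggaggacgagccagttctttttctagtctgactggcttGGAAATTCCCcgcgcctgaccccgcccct
Both chemokine stretches hold 2 matches, the nearer of which begins 71 and 78 bases before the gene start. The second set, with interferon-element matches, belongs to the antiviral gene Ifit1 (chr19:34640759-34640858, plus strand), the chemokine Cxcl10 (chr5:92349040-92349139, minus strand) and the GTPase Gbp2 (chr3:142620559-142620658, plus strand).
Ifit1: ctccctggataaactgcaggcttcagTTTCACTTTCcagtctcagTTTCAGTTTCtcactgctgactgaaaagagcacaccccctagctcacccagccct
Cxcl10: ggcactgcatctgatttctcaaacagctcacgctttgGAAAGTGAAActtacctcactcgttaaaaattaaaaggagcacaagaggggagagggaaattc
Gbp2: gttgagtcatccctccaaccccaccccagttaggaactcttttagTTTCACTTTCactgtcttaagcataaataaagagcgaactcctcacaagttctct

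Among the 15 largest rises were 6 chemokines and 2 serum amyloids. Saa3, a serum amyloid A gene made in tissues, rose most. Its log2 values were 7.51, 7.78, 7.90 and 7.72 in saline mice and 14.08, 14.16 and 14.15 after LPS, an 84.5-fold rise (log2 difference 6.40 ± 0.086 (SE, adjusted p = 4.56e-16)). Its relative Saa1 read 6.57, 6.24, 6.98 and 6.53 and 11.79, 12.10 and 11.82 (log2 difference 5.32 ± 0.21 (SE, adjusted p = 4.83e-11)). For both genes the LPS mice lay close together and far above every saline mouse. Cxcl10, which attracts T cells through Cxcr3, read 7.57, 7.28, 7.08 and 7.48 in saline mice and 13.58, 13.67 and 13.65 after LPS (6.28 ± 0.13 (SE, adjusted p = 1.16e-13)). Cxcl9 and Cxcl11 share this receptor and differed by 5.83 and 4.98, with 1.27 for the other probe set of Cxcl11. Other genes of this group were the guanylate-binding protein Gbp6, the myeloid gene Slfn4, the itaconate-making enzyme Acod1, the ubiquitin-like Ubd, the tryptophan-degrading Ido1, the metalloreductase Steap4 and the checkpoint ligand Cd274, with log2 differences of 5.34 for Gbp6, 4.97 for Slfn4, 4.83 for Acod1, 4.64 for Ubd, 4.63 for Ido1, 4.36 for Steap4 and 4.33 for Cd274.

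**Figure D2:**
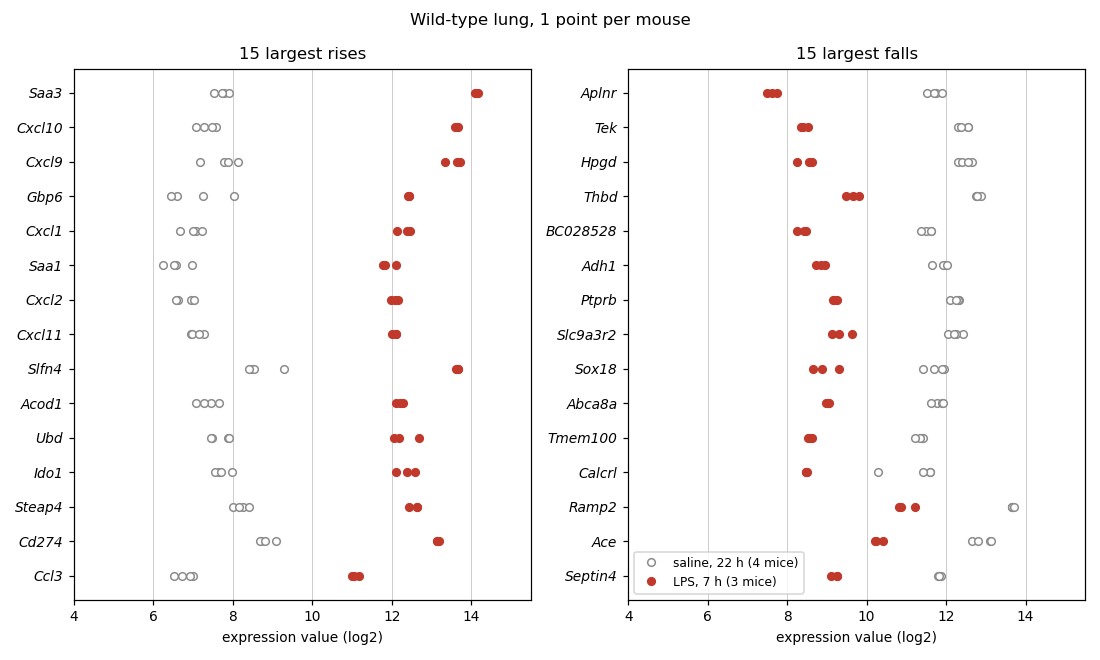
Log2 expression values of the genes with the 15 largest rises (left) and 15 largest falls (right) 7 h after LPS, 1 point per mouse, with open points for the 4 saline mice and filled points for the 3 LPS mice. The groups do not overlap for any of these genes, by the rule that chose them, and rises reach 6.40 and falls -4.10 on the log2 scale.

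The largest falls included several genes of endothelium. Aplnr, the apelin receptor of endothelium, read 11.76, 11.52, 11.89 and 11.69 in saline mice and 7.49, 7.63 and 7.73 after LPS, 17.1-fold lower (log2 difference -4.10 ± 0.20 (SE, adjusted p = 2.82e-10)). Tek, the angiopoietin receptor that keeps endothelium quiescent, read 12.31, 12.55, 12.55 and 12.36 and 8.52, 8.39 and 8.35 (-4.03 ± 0.20 (SE, adjusted p = 3.73e-10)). Hpgd, which inactivates prostaglandins, read 12.30, 12.40, 12.65 and 12.55 and 8.62, 8.24 and 8.55 (-4.005 ± 0.24 (SE, adjusted p = 3.02e-09)). In each case the LPS mice lay close together and far below every saline mouse. The other probe set of Aplnr and that of Hpgd were also called lower, with smaller log2 differences of -1.39 and -1.23. Thrombomodulin (Thbd), the endothelial thrombin receptor that starts protein C activation, differed by -3.16 ± 0.14 (SE, adjusted p = 9.64e-11). The other falls of this group were in BC028528, the alcohol dehydrogenase Adh1, the endothelial phosphatase Ptprb, the scaffold protein Slc9a3r2, the transcription factor Sox18, the transporter Abca8a, Tmem100, the adrenomedullin receptor parts Calcrl and Ramp2, the angiotensin-converting enzyme Ace, and Septin4, with log2 differences of -3.14 for BC028528, -3.05 for Adh1, -3.04 for Ptprb, -2.88 for Slc9a3r2, -2.80 for Sox18, -2.78 for Abca8a, -2.77 for Tmem100, -2.74 for Calcrl, -2.71 for Ramp2, -2.64 for Ace and -2.64 for Septin4.

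Of 21 measured genes of LPS recognition and Toll-like signalling, 13 were higher and 0 lower, with a median log2 difference of 0.46. The LPS co-receptor Cd14 read 10.32, 9.84, 10.11 and 10.15 in saline mice and 12.85, 12.97 and 12.98 after LPS (2.83 ± 0.11 (SE, adjusted p = 4.20e-11)), while Tlr4 itself moved much less, from 7.43 to 7.84 to 8.03 to 8.26 (0.46 ± 0.11 (SE, adjusted p = 0.00369)). Ly96, Lbp and the adaptor Myd88 rose by 1.31, 0.76 and 1.77 on the log2 scale, and the kinase Map3k8 and the lipopeptide receptor Tlr2 by 2.27 and 2.17. The receptor Tlr3 for double-stranded RNA and the inflammasome sensor Nlrp3 differed by 1.42 and 0.91. Tlr9, the receptor for bacterial DNA, did not pass the test, with -0.13.

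All but 1 of the 18 measured NF-kB subunits, inhibitors and feedback genes were higher, with a median log2 difference of 1.70. Inhibitors stood among them. Nfkbia, the inhibitor that holds NF-kB in the cytoplasm and whose promoter stretch is printed above, read 13.16, 13.13, 13.29 and 13.13 in saline mice and 14.06, 14.10 and 14.09 after LPS, so that a gene already bright in saline lungs rose 1.88-fold (0.91 ± 0.069 (SE, adjusted p = 5.47e-08)). The relatives Nfkbib, Nfkbie and Nfkbiz differed by 1.30, 1.55 and 2.39, and the nuclear co-regulator Bcl3 by 2.34. Tnfaip3, an enzyme that ends NF-kB signalling through ubiquitin chains, read 9.17, 8.91, 9.12 and 8.84 and 11.14, 11.35 and 11.28 (2.24 ± 0.11 (SE, adjusted p = 2.82e-10)). Its partner Tnip1, the mRNA-degrading Zc3h12a and Zfp36, the apoptosis inhibitor Birc3, Gadd45b and Tnfaip2 rose by 2.51 for Tnip1, 2.47 for Zc3h12a, 1.37 for Zfp36, 2.20 for Birc3, 1.20 for Gadd45b and 2.26 for Tnfaip2. Of the subunits, Relb and Nfkb2 of the alternative pathway differed by 1.83 and 1.57 and Rela and Rel by 0.40 and 0.51, where the call for Rela was lost without saline replicate 4 or LPS replicate 2 (difference 0.35 to 0.36, adjusted p = 0.0584 to 0.0782). The kinase Ikbke rose by 3.14. Traf1 was the exception, at 8.64 to 8.82 in saline mice and 8.83 to 8.92 after LPS (adjusted p = 0.417).

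Immediate-early and C/EBP genes were mixed, with 11 of 18 higher and 2 lower. Cebpb and Cebpd, which drive acute-phase genes, rose by 1.82 and 2.15, and Junb, Maff and Atf3 by 1.89, 2.01 and 1.77, while Cebpa fell by 0.57. Fosb was also called lower (-0.26), a call lost without saline replicate 1, 3 or 4 or LPS replicate 1, 2 or 3 (difference -0.23 to -0.29, adjusted p = 0.0740 to 0.158). Fos read 9.96, 11.26, 11.73 and 11.56 in saline mice and 11.67, 11.97 and 11.96 after LPS and did not pass the test (adjusted p = 0.0960), but did without saline replicate 3 (difference 0.94, adjusted p = 0.0410). The saline mouse of replicate 1 was lowest for Fos, and that of replicate 3, at 11.73, lay above the lowest LPS mouse at 11.67.

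The neutrophil-attracting chemokines rose as a group, 6 of the 7 genes measured with their receptor Cxcr2 included. Cxcl1 read 7.07, 7.000, 6.68 and 7.22 in saline mice and 12.14, 12.38 and 12.46 after LPS, a 40.3-fold rise (5.33 ± 0.20 (SE, adjusted p = 1.93e-11)). Cxcl2 read 6.96, 7.02, 6.62 and 6.58 and 11.97, 12.16 and 12.08 (5.27 ± 0.15 (SE, adjusted p = 1.13e-12)). These genes lie close together on chromosome 5, and for both the groups were far apart. The epithelial chemokine Cxcl5 read 5.64, 5.75, 5.76 and 5.72 and 7.75, 8.42 and 8.60 (2.54 ± 0.23 (SE, adjusted p = 3.65e-07)). The platelet chemokines Ppbp and Pf4 differed by 1.49 and 0.78 and Cxcr2 by 0.72. Cxcl15, which lung epithelium makes without stimulus, was bright in both groups, at 13.32 to 13.73 and 13.48 to 13.54 (adjusted p = 0.964).

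Of 22 CC chemokines and receptors, 15 were higher and 2 lower. The monocyte attractants Ccl2, Ccl7 and Ccl12 rose by 3.04, 1.89 and 2.91, the chemokines Ccl3, Ccl4 and Ccl5 by 4.28, 2.33 and 3.01, and Ccl17 and Ccl22, which attract T cells through Ccr4, by 2.44 and 2.22. Ccl2 read 7.51, 7.72, 8.36 and 7.52 in saline mice and 10.57, 10.89 and 10.999 after LPS. The receptor Ccr1 of neutrophils and monocytes rose by 2.52, and Ccr2, the receptor for Ccl2, fell by 0.51. Ackr3, an atypical receptor that takes up Cxcl12, differed by 3.03, while Cxcl12 gave -0.15 without passing the test and its signalling receptor Cxcr4 fell by 1.46.

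Cytokines differed greatly in size. Il1b read 9.38, 9.57, 9.85 and 9.24 in saline mice and 13.58, 13.28 and 13.44 after LPS (3.92 ± 0.14 (SE, adjusted p = 1.91e-11)), and 11 of 12 genes of the IL-1 family were higher, none lower. The IL-1 antagonists stood beside the agonist, with 3.43 for Il1rn and 4.20 for Il1r2 for the receptor antagonist and the decoy receptor, and the IL-18 binding protein gave 2.26 for Il18bp. The cytokine it binds, Il18, moved by 0.21, a call lost without saline replicate 1, 2, 3 or 4 or LPS replicate 1 or 3 (difference 0.16 to 0.23, adjusted p = 0.0579 to 0.211). Il6 read 6.12, 5.80, 6.42 and 6.43 and 9.38, 10.10 and 10.24 (3.72 ± 0.36 (SE, adjusted p = 7.21e-07)). Tnf, an early cytokine of the response to LPS, read 9.11, 8.77, 9.15 and 8.88 and 9.99, 9.81 and 9.66, a rise of 1.79-fold (0.84 ± 0.13 (SE, adjusted p = 8.91e-05)). The colony-stimulating factors Csf1, Csf2 and Csf3 rose by 1.93, 1.40 and 2.59, the IL-10 and IL-15 genes by 0.81 for Il10 and 1.46 for Il15 and Ebi3 by 2.31. The TNF receptor genes Tnfrsf1a and Tnfrsf1b gave 0.51 and 1.63 and the co-stimulatory receptor Cd40 2.66. Il12b, Lta and Fasl did not pass the test, with -0.060, -0.0023 and -0.057.

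**Figure D3:**
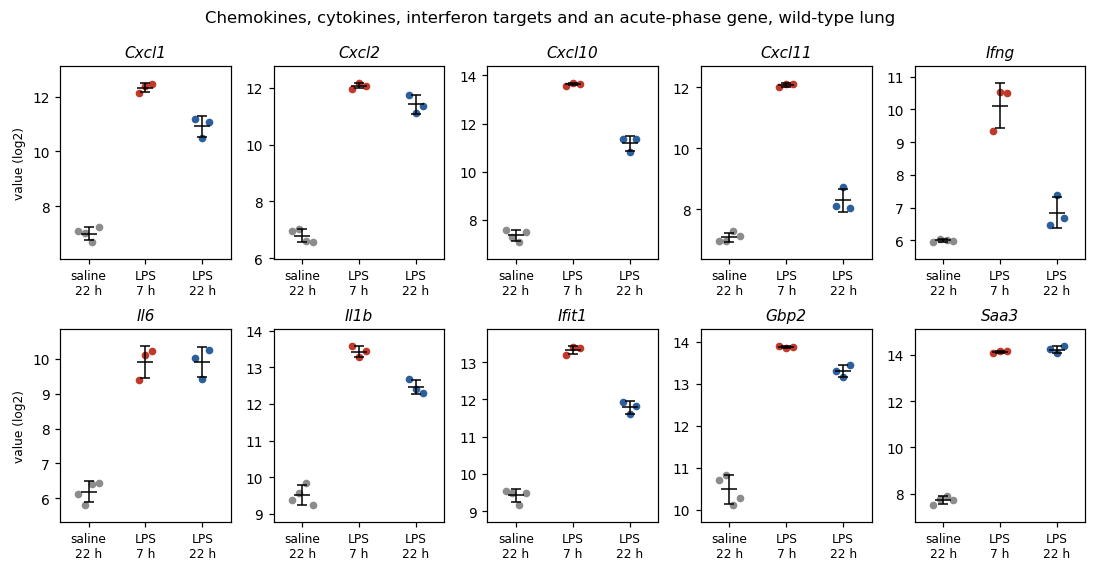
Log2 expression values of 10 genes in wild-type lung 22 h after saline (4 mice), 7 h after LPS (3 mice) and 22 h after LPS (3 mice), 1 point per mouse with the mean and SD in black. All 3 LPS mice at 7 h lie above all 4 saline mice for every gene drawn, and the means of Cxcl11 and Ifng at 22 h differ from those at 7 h by -3.77 and -3.27 on the log2 scale.

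Type I interferon genes rose together. Of 36 measured antiviral genes 33 were higher and 1 lower, with a median log2 difference of 2.14 against -0.066 for all genes. Ifit1, which binds foreign RNA, read 9.54, 9.49, 9.16 and 9.49 in saline mice and 13.21, 13.40 and 13.38 after LPS (3.91 ± 0.12 (SE, adjusted p = 4.09e-12)). Rsad2, Ifit2, Mx1, Usp18, Irf7 and Zbp1 rose by 4.25 for Rsad2, 4.21 for Ifit2, 3.51 for Mx1, 3.36 for Usp18, 3.33 for Irf7 and 3.31 for Zbp1, and the RNA sensor Ifih1 and the kinase Eif2ak2 by 2.14 and 1.19. The cytokine gene Ifnb1 itself was dim in both groups, at 7.02 to 7.47 and 6.89 to 7.21, and did not pass the test (adjusted p = 0.549). Irf3, the factor that first turns on interferon beta, fell by 0.32, a call lost without saline replicate 4 or LPS replicate 2 or 3 (difference -0.27 to -0.32, adjusted p = 0.0507 to 0.0551), and the receptor part Ifnar1 gave -0.0039.

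The type II interferon axis rose too, 10 of 13 genes with none lower and a median of 2.84. Ifng, the cytokine of natural killer and T cells, read 5.94, 6.05, 6.01 and 5.97 in saline mice and 9.32, 10.52 and 10.50 after LPS (4.12 ± 0.30 (SE, adjusted p = 2.79e-08)). Its immunity GTPases, which attack vacuoles that hold microbes, gave 3.38 for Gbp2, 2.84 for Gbp3, 2.59 for Gbp7, 2.85 for Igtp, 3.05 for Iigp1, 2.79 for Irgm1 and 2.17 for Irgm2. The receptor genes Ifngr1 and Ifngr2 gave -0.027 and 0.064. All 10 genes of the immunoproteasome and of MHC class I loading were higher, among them the peptide transporter parts Tap1 and Tap2 and the proteasome subunits Psmb8 and Psmb9 with 2.82, 1.85, 1.83 and 1.54. MHC class II genes went the other way, with 4 of 6 lower and none higher. H2-DMa and H2-Eb1 fell, with log2 differences of -0.68 and -0.56, Cd74 gave 0.043 and the class II regulator Ciita 0.42, which passed the test without saline replicate 1 (difference 0.49, adjusted p = 0.0369).

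Of 20 acute-phase and metal-handling genes 19 were higher, with a median log2 difference of 2.84. Lcn2, which withholds iron from bacteria, read 10.70, 10.75, 11.07 and 10.92 in saline mice and 14.13, 14.04 and 14.06 after LPS (3.22 ± 0.087 (SE, adjusted p = 9.79e-13)). The metallothionein Mt2, which binds zinc, read 10.43, 10.65, 10.29 and 10.42 and 14.63, 14.66 and 14.59 (4.18 ± 0.079 (SE, adjusted p = 3.56e-14)), and its neighbour Mt1 rose by 3.18 with the zinc transporter Slc39a14 at 3.05. Orm1, Hpx, Serpina3n, Cfb, Ptx3 and Saa2 rose by 3.09 for Orm1, 2.70 for Hpx, 2.54 for Serpina3n, 2.996 for Cfb, 2.97 for Ptx3 and 2.36 for Saa2. Orm2 was the member not called (0.33). The liver gene Alb, a check for blood-borne or liver RNA, read 7.81 to 7.93 in saline mice and 7.76 to 7.92 after LPS.

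Genes known to respond to glucocorticoids were higher in 13 of 20 cases and lower in 3. Fkbp5 read 9.91, 9.78, 10.01 and 9.88 in saline mice and 12.24, 12.10 and 12.06 after LPS (2.24 ± 0.083 (SE, adjusted p = 2.03e-11)). Ddit4, Pdk4, Zbtb16 and Sgk1 rose by 1.87, 1.70, 1.34 and 1.08, while Tsc22d3 and Per1 gave 0.030 and 0.29 and the receptor gene Nr3c1 fell by 0.55. Several members of this list (Lcn2, Mt1, Mt2, Cdkn1a) also answer to other stimuli. Of the STAT pathway 10 of 18 genes were higher and 1, Tyk2, lower (-0.34). The feedback inhibitors Socs3 and Socs1 were the largest of them. Socs3 read 9.25, 9.41, 9.46 and 9.61 and 12.44, 12.52 and 12.51 (3.05 ± 0.084 (SE, adjusted p = 9.79e-13)) and Socs1 differed by 2.84. Cish and Socs2 gave 0.71 and 0.56, Socs4 and Socs5 did not pass the test (-0.065 and -0.020), and Stat2, Stat3 and Jak2 rose by 1.99, 0.98 and 1.04.

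Neutrophil genes rose in 22 of 24 cases, with none lower and a median of 2.29. S100a8, an abundant cytoplasmic protein of neutrophils, read 10.99, 10.26, 10.63 and 10.33 in saline mice and 13.88, 13.81 and 14.02 after LPS (3.35 ± 0.13 (SE, adjusted p = 4.45e-11)). The granule gene Ngp read 9.25, 9.05, 9.005 and 8.85 and 12.90, 12.87 and 13.17 (3.94 ± 0.14 (SE, adjusted p = 1.87e-11)). S100a9, Clec4e, Fpr2, Itgam, Mmp8, Trem1, Camp and Ltf rose by 3.74 for S100a9, 3.15 for Clec4e, 3.23 for Fpr2, 3.11 for Itgam, 2.92 for Mmp8, 2.62 for Trem1, 2.20 for Camp and 1.38 for Ltf. Early granule genes made in bone marrow moved less, with 0.77 for Mpo, 0.35 for Elane and 0.55 for Prtn3, and Ctsg was not called (0.16). Chil3, which is not an early granule gene, was not called either (0.19). The level of the list, taken as the median deviation of its genes from their median over all arrays, lay between -1.94 and -1.74 in saline mice and between 0.12 and 0.19 after LPS. The part of cell number in the rises of cytokines and receptors that neutrophils also make was not tested. The phagocyte oxidase genes Ncf1, Ncf4, Rac2, Cybb and Cyba rose by 2.08 for Ncf1, 1.65 for Ncf4, 1.45 for Rac2, 1.08 for Cybb and 0.77 for Cyba.

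Monocyte and macrophage genes were divided, 9 of 20 higher and 7 lower. The Fc receptors Fcgr1, Fcgr4 and Fcgr3 rose by 2.88, 2.81 and 1.95, while the complement parts C1qa and C1qc, the scavenger receptor Cd163 and the fractalkine receptor Cx3cr1 fell, with log2 differences of -0.48, -0.40, -0.56 and -0.56. Of 12 alveolar macrophage genes 4 were higher and 2 lower, with a median log2 difference of 0.087. Marco, a scavenger receptor, Car4, Fabp5 and Plet1 rose by 0.94, 0.68, 0.61 and 0.43. Mertk, a receptor for dying cells, fell by 0.96, and Siglecf was lower (-0.33), a call lost without saline replicate 2 or 3 or LPS replicate 1, 2 or 3 (difference -0.22 to -0.33, adjusted p = 0.0776 to 0.0835). B cell genes were lower in 7 of 12 cases with none higher. The B cell receptor part Cd79a read 10.30, 10.14, 10.03 and 9.95 in saline mice and 8.29, 8.15 and 8.06 after LPS (-1.94 ± 0.12 (SE, adjusted p = 3.41e-09)), and Cd79b gave -1.49, although Pax5 and Ighm were not called (-0.16 and -0.16). Ms4a1 was not called (-0.51) but was without saline replicate 3 (difference -0.64, adjusted p = 0.0488). Of 20 T and NK cell genes 9 were lower, 4 higher and 7 not called, with a median log2 difference of -0.22. The T cell receptor parts Cd3g and Cd3d fell, with log2 differences of -1.002 and -0.63, and Cd2 fell by 0.91. The killer genes Gzmb, Gzma and Prf1 rose by 2.01, 0.66 and 0.46. The natural killer gene Ncr1 gave 0.037 and did not pass the test. Eosinophil, basophil and mast cell genes had 1 of 12 called, Siglecf.

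Endothelial genes fell. Of 31 measured genes of endothelial identity 23 were lower and 4 higher, with a median log2 difference of -1.40. Tie1, the partner of Tek, read 10.93, 11.11, 11.29 and 11.29 in saline mice and 8.75, 8.58 and 8.56 after LPS (-2.53 ± 0.12 (SE, adjusted p = 3.91e-10)). The VEGF receptor Kdr read 11.63, 11.51, 11.54 and 11.45 and 9.81, 9.83 and 9.69 (-1.76 ± 0.089 (SE, adjusted p = 5.45e-10)). The adhesion molecule Pecam1 read 11.75, 11.80, 11.80 and 11.73 and 10.38, 10.27 and 10.27 (-1.46 ± 0.11 (SE, adjusted p = 6.62e-08)). Caveolae genes, mucin-like Emcn, Plvap of capillary diaphragms, Sox17 and von Willebrand factor also fell, with log2 differences of -1.66 for Cav1, -2.08 for Cav2, -1.61 for Emcn, -1.49 for Plvap, -1.96 for Sox17 and -1.25 for Vwf. The list did not fall as a block. Cdh5, the cadherin of endothelial junctions, read 11.45, 11.63, 11.58 and 11.66 in saline mice and 11.54, 11.63 and 11.61 after LPS (difference 0.010, adjusted p = 0.955), and the transcription factors Fli1 and Tal1 and the synthase Nos3 gave -0.098, -0.19 and -0.24. Procr, the protein C receptor, read 6.78, 6.96, 7.11 and 6.93 and 8.53, 8.71 and 8.79 (1.73 ± 0.18 (SE, adjusted p = 1.97e-06)). The junction protein Cldn5, the guidance receptor Robo4 and the sphingosine receptor S1pr1 rose by 0.48, 1.24 and 0.91.

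**Figure D4:**
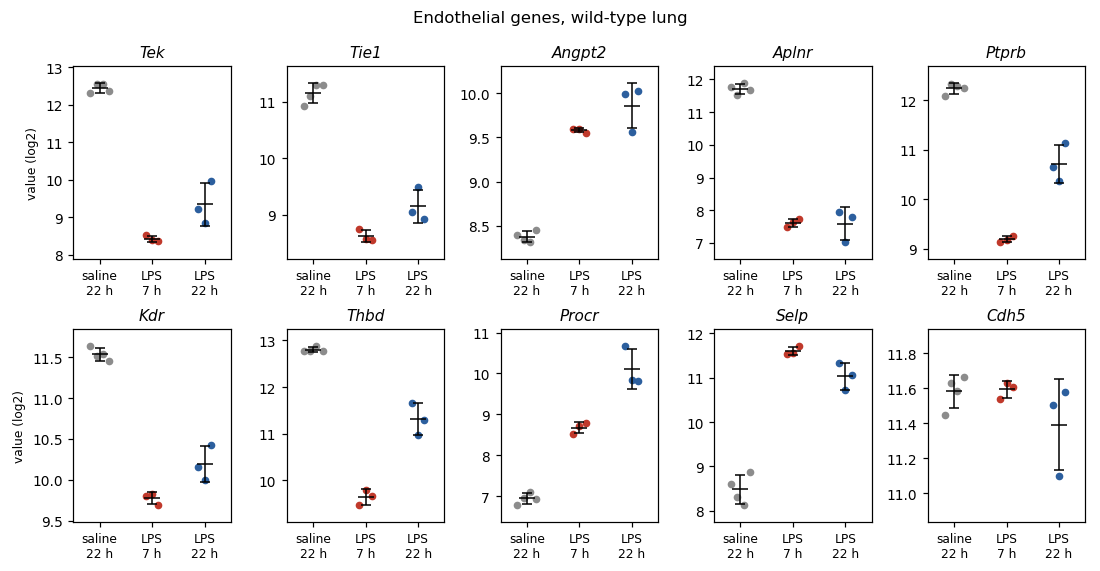
Log2 expression values of 10 endothelial genes in wild-type lung 22 h after saline (4 mice), 7 h after LPS (3 mice) and 22 h after LPS (3 mice), 1 point per mouse with the mean and SD in black. Tek, Tie1, Aplnr, Ptprb, Kdr and Thbd lie lower at 7 h in every LPS mouse, Procr, Selp and Angpt2 higher, and the groups overlap for Cdh5.

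Of 17 genes of the angiopoietin, VEGF, apelin and adrenomedullin axes 5 were higher and 11 lower, with a median log2 difference of -0.44. The Tek antagonist Angpt2 read 8.40, 8.34, 8.32 and 8.45 in saline mice and 9.59, 9.59 and 9.55 after LPS (1.20 ± 0.14 (SE, adjusted p = 5.55e-06)), while the agonist Angpt1 fell by 0.62. The hormone adrenomedullin (Adm), which dilates vessels, rose by 2.07 while its receptor parts Calcrl and Ramp2 fell (-2.74 and -2.71) and Ramp3 rose by 1.07. Ramp1 of the same family fell (-0.96). The apelin gene Apln fell with its receptor (-0.58). The lymphatic growth factor Vegfc fell by 0.47, Pgf rose by 0.76 and Vegfa gave -0.15. Of 24 genes of BMP and TGF-beta signalling, which holds endothelium at rest, 2 were higher, 8 lower and 14 not called, with a median of -0.20. Bmp6, Acvrl1, Smad6 and Smad7 fell, with log2 differences of -2.33, -1.62, -1.35 and -0.91, whereas the activin subunit Inhbb, which read 8.51, 8.34, 8.33 and 8.78 and 12.16, 12.32 and 12.28, rose by 3.77, and the signal carrier Smad1 by 1.32. The receptors Bmpr2 and Bmpr1a and the targets Id1, Id2 and Id3 were not called (-0.35 for Bmpr2, -0.30 for Bmpr1a, 0.23 for Id1, 0.075 for Id2 and -0.20 for Id3), although Bmpr2, Bmpr1a and Id1 were without wild-type replicate 2 at 22 h, which shares the fit, and Id1 was also without saline replicate 2 (difference 0.29, adjusted p = 0.0209).

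Of 17 selectins and adhesion molecules, which slow and hold leukocytes, 9 were higher and 2 lower, with a median log2 difference of 0.32. Selp, the selectin released to the endothelial surface, read 8.60, 8.32, 8.13 and 8.88 in saline mice and 11.54, 11.55 and 11.71 after LPS (3.11 ± 0.16 (SE, adjusted p = 4.64e-10)). Sele, Vcam1 and Icam1 rose by 2.01, 1.60 and 1.58, and Icam2, which endothelium shows at rest, fell by 1.79, as did Pecam1 (-1.46). On the leukocyte side Itgam, Selplg and Itgb2 rose by 3.11, 1.09 and 0.94. Of 24 coagulation genes 10 were higher and 3 lower. Thbd read 12.78, 12.76, 12.88 and 12.77 and 9.47, 9.80 and 9.66, 8.92-fold lower, while tissue factor (F3), which starts coagulation, read 8.07, 8.40, 8.12 and 8.28 and 9.45, 9.66 and 9.74 (1.40 ± 0.17 (SE, adjusted p = 1.13e-05)). Plat and Plaur of the plasmin system rose by 2.37 and 2.07, and the fibrinogen chains Fga and Fgg by 0.93 and 2.01 with Fgb not called (-0.035).

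Of 15 measured genes of nitric oxide, its cofactor tetrahydrobiopterin and cyclic GMP, 2 were higher and 8 lower. Nos2 read 8.47, 8.17, 7.75 and 8.31 in saline mice and 8.93, 8.995 and 9.06 after LPS, a rise of 1.77-fold (0.83 ± 0.15 (SE, adjusted p = 5.37e-04)), and Gch1, which makes the cofactor, rose by 1.83. The nitric oxide receptor subunits Gucy1a1 and Gucy1b1 fell, with log2 differences of -1.51 and -1.75. The natriuretic peptide receptors Npr1, Npr2 and Npr3 fell, with log2 differences of -0.65, -1.21 and -1.67. Ddah2, Prkg2 and Spr fell, with log2 differences of -1.22, -1.35 and -0.33, with the call for Spr lost without LPS replicate 2 (difference -0.32, adjusted p = 0.0539). Nos1, Nos3, Pde1a, Prkg1 and Pts were not called (-0.27 for Nos1, -0.24 for Nos3, 0.084 for Pde1a, -0.097 for Prkg1 and -0.24 for Pts). Of 14 genes of vessel tone 1 was higher and 5 lower. The vasoconstrictor endothelin (Edn1) rose by 0.65, a call lost without saline replicate 1 or LPS replicate 2 or 3 (difference 0.58 to 0.65, adjusted p = 0.0509 to 0.101), while its clearing receptor Ednrb, its converting enzyme Ece1 and Ace fell, with log2 differences of -1.50, -0.42 and -2.64. Ace read 12.65, 12.81, 13.10 and 13.13 and 10.40, 10.22 and 10.22. The potassium channel genes Kcnk3 and Abcc9 fell, with log2 differences of -0.98 and -0.57, and Kcnj8, Kcna5, Kcnma1 and Kcnmb1 gave -0.041, -0.22, -0.22 and -0.15. The receptors Adra1b and Agtr2, the precursor Agt and the channel Trpc6 gave 0.026, -0.11, -0.0077 and -0.18. Among the measured arginine and polyamine genes the rate-limiting Odc1 rose by 2.09 with the arginine transporter Slc7a2 at 0.97.

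Prostaglandin genes moved in both directions. Ptgs2, the inducible cyclooxygenase, read 7.42, 7.48, 7.29 and 7.53 in saline mice and 9.40, 8.99 and 9.05 after LPS (1.72 ± 0.31 (SE, adjusted p = 3.86e-04)), and Ptges, which makes prostaglandin E2, rose by 1.53 with its receptor Ptger4 at 0.98. Hpgd was 16.1-fold lower by its brightest probe set (log2 difference -1.23 by the other), and the prostacyclin synthase Ptgis fell by 1.35. Over the 20 genes of the list 8 were higher and 5 lower.

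Epithelial, muscle and matrix genes also fell, with list medians nearer to zero than that of endothelium. Alveolar type 2 genes were lower in 12 of 16 cases and higher in 1, with a median of -0.39, and the medians were -0.43 for smooth muscle and pericytes and -0.53 for fibroblasts and matrix. Etv5, a transcription factor of alveolar type 2 cells, fell by 1.54, the lipid transporter Abca3 fell by 0.87 and Lpcat1 fell by 0.78. The surfactant genes moved little, with -0.39 for Sftpb and -0.23 for Sftpc. Sftpd rose by 0.22, a call lost without LPS replicate 1 (difference 0.20, adjusted p = 0.0508). Sftpc has 2 probe sets, of which 1 was called. Of 13 alveolar type 1 genes 7 were lower, among them the water channel Aqp5 with -1.02 and Ager with -0.43. In the airway lists Fmo2, Tppp3 and Aldh1a1 fell, with log2 differences of -1.66, -1.01 and -0.75, Muc5b rose by 0.69, and Scgb1a1 gave -0.051. No smooth muscle or pericyte gene was higher and 11 of 20 were lower. The pericyte gene Higd1b fell by 2.33, the receptor Notch3 fell by 0.86 and the contractile genes Acta2 and Tagln fell, with log2 differences of -0.43 and -0.40. Among 25 fibroblast and matrix genes 16 were lower, with -1.17 for Col1a1, -1.21 for Col3a1, -1.33 for Eln, -2.08 for Inmt and -1.11 for Tcf21, and Col13a1 and Tnc were higher (0.48 and 0.90), Tnc not without LPS replicate 1 (difference 0.71, adjusted p = 0.0656). The proteinase genes Mmp8, Adamts4 and Mmp13 and the inhibitor Timp1 rose by 2.92, 2.85, 2.33 and 3.41, and Mmp2 and Timp2 fell, with log2 differences of -1.03 and -1.64.

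Of 19 clock genes 8 were lower and 3 higher. The clock runs by Arntl and Clock turning on their repressors (Per and Cry genes) and output factors such as Dbp, Tef and Hlf, and its genes cycle over the day, so that the time of harvest is of weight here. Dbp read 9.89, 10.60, 10.51 and 10.46 in saline mice and 8.88, 8.90 and 8.89 after LPS (-1.48 ± 0.17 (SE, adjusted p = 7.06e-06)). Per3, Hlf, Tef and Per2 fell, with log2 differences of -0.88, -0.84, -0.68 and -0.53. The repressor Nr1d1 read 10.33, 11.61, 10.80 and 10.53 and 10.17, 10.18 and 9.97 (-0.71 ± 0.22 (SE, adjusted p = 0.0194)), with saline replicate 2 well above the other saline mice, and its call was lost without LPS replicate 3 (difference -0.64, adjusted p = 0.0808). Rora and Csnk1e fell, with log2 differences of -0.66 and -0.51. Bhlhe40 rose by 0.77 and Nfil3, which represses the targets of Dbp, by 1.86, while the small rise of Arntl (0.29) was lost without any 1 of the 7 arrays (difference 0.25 to 0.31, adjusted p = 0.0656 to 0.134). Clock, Npas2, Cry1, Cry2, Per1, Nr1d2, Bhlhe41 and Csnk1d were not called (-0.13 for Clock, -0.19 for Npas2, 0.062 for Cry1, 0.35 for Cry2, 0.29 for Per1, -0.28 for Nr1d2, -0.048 for Bhlhe41 and 0.082 for Csnk1d), although Per1 was without saline replicate 3 or 4 (difference 0.36 to 0.37, adjusted p = 0.0433 to 0.0474). The LPS mice taken at 22 h share the label time of the saline mice, and against the same saline mice their log2 differences were -1.49 for Dbp, -1.10 for Per3, -0.98 for Hlf, -1.25 for Tef, -0.35 for Per2, -0.84 for Nr1d1 and 2.09 for Nfil3 (-1.69, -1.04, -0.92, -1.15, -0.54, -0.84 and 2.37 without replicate 2 at 22 h). In the direct test between 22 h and 7 h after LPS, 1 of the 19 clock genes, Tef, was called (difference -0.57 ± 0.11 (SE, adjusted p = 0.00235); -0.47 without that array, when 3 clock genes were higher and 1 lower at 22 h).

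**Figure D5:**
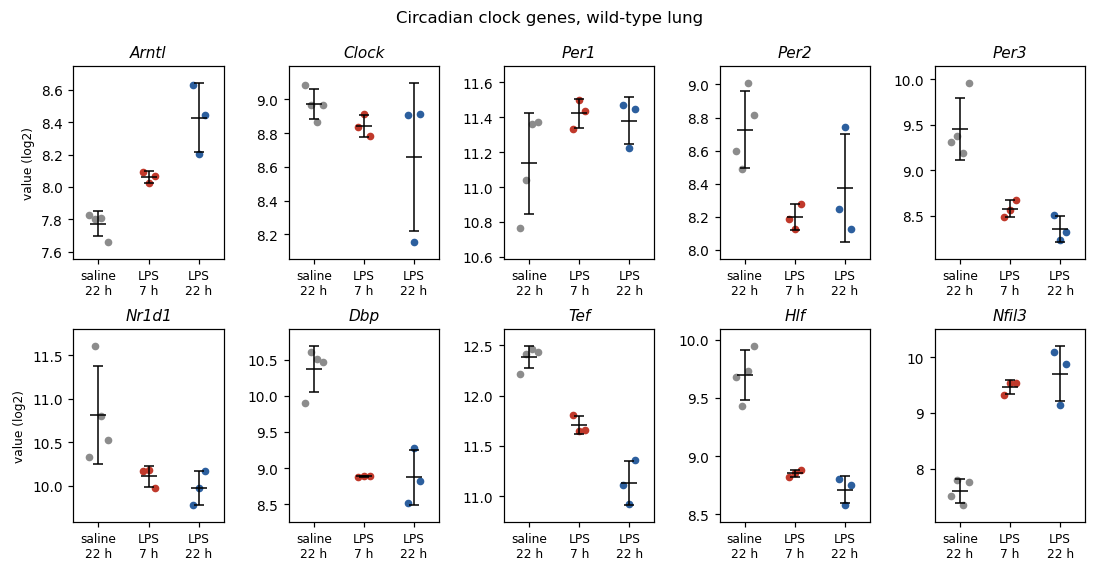
Log2 expression values of 10 clock genes in wild-type lung 22 h after saline (4 mice), 7 h after LPS (3 mice) and 22 h after LPS (3 mice), 1 point per mouse with the mean and SD in black. Dbp and Per3 lie lower and Nfil3 higher in all LPS mice at 7 h than in all saline mice, while the groups overlap for Clock.

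Metabolic and stress genes changed in part. Of 26 glycolysis and hypoxia genes 14 were higher and 4 lower. Hif1a, the hypoxia factor that LPS also induces in myeloid cells, read 10.22, 9.83, 9.999 and 9.96 in saline mice and 12.18, 12.28 and 12.34 after LPS (2.26 ± 0.13 (SE, adjusted p = 2.85e-09)), and its endothelial relative Epas1 fell by 1.05. Pfkfb3, Hk2 and the glucose transporter Slc2a1 rose by 2.55, 1.59 and 1.12, while the hypoxia targets Car9, Bnip3, Egln3 and Vegfa gave 0.069, -0.19, 0.17 and -0.15. Among redox genes the mitochondrial dismutase Sod2 rose by 2.40 and Hmox1, Gsr and Txnrd1 by 1.46, 1.61 and 1.25, while extracellular Sod3 fell by 0.84 and the NRF2 target Nqo1 gave 0.20. In the unfolded-protein list 12 of 26 were higher and 1 lower, with 1.25 for Asns, 0.96 for Manf, 0.93 for Atf4 and 0.78 for Hspa5. Heat shock genes were called in 4 of 18 cases, and Hspa1a gave 0.13. Cytochrome P450 genes were lower in 9 of 15 cases, among them Cyp1a1 with -2.28 and Cyp2e1 with -1.30, and higher in 3, among them Cyp7b1 with 1.62.

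Cell death genes included Casp4, the cytosolic LPS sensor, which read 8.56, 8.91, 8.65 and 8.70 in saline mice and 11.69, 11.89 and 12.10 after LPS (3.19 ± 0.12 (SE, adjusted p = 2.06e-11)). Over this list 12 of 19 genes were higher and 2 lower. The cell cycle inhibitor Cdkn1a rose by 2.17 while Cdkn2c fell by 1.26, and of 37 cell cycle genes 8 were higher and 3 lower. Ribosomal and oxidative phosphorylation genes had medians of -0.081 and -0.045, with 2 of 30 and 2 of 44 higher and 7 and 8 lower. In these 3 lists the genes called were no larger a share than the 35.2% of all genes.

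Markers of neighbouring tissues that a dissected lung can carry were compared in the same mice. Of 16 cardiac muscle genes 2 were lower and none higher, Myl7 read 10.85 to 11.33 in saline mice and 10.79 to 11.05 after LPS, and the list's level was -0.059 to 0.22 and -0.036 to 0.23. Skeletal muscle, squamous epithelium, cartilage and liver or pancreas lists had 1 gene lower each and none higher, of 14, 10, 11 and 10. Of 7 thymocyte genes 2 were lower, Cd1d1 and Cd8b1 (-0.54 and -0.33), and none higher, and Rag1 read 6.02 to 6.32 and 6.04 to 6.17. Adipose genes were lower in 3 of 8 cases, among them Cidec with -0.83.

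The lungs taken 22 h after LPS show which of these changes differed later. Between 22 h and 7 h, 1047 genes (8.45%) were lower at 22 h and 431 (3.48%) higher. Of the 1805 genes that had risen at 7 h, 533 were lower at 22 h than at 7 h and 87 higher. Of the 2554 that had fallen, 194 were higher at 22 h and 246 lower still. The same 7 h arrays chose these genes and enter the difference from 22 h. That alone favours lower values at 22 h among genes that had risen and higher values among those that had fallen. Without replicate 2 at 22 h, 1056 genes (8.52%) were lower and 996 (8.04%) higher, with 524 lower and 166 higher among those that had risen at 7 h and 368 higher and 258 lower among those that had fallen. The probe sets called changed from 713 to 1676 higher and from 1738 to 1749 lower. Without any 1 mouse taken at 7 h they were 344 to 428 and 1107 to 1185, without replicate 3 at 22 h 1585 and 2513, and under quantile normalization 1235 and 1676, so that 42.4% of the calls were higher against 29.1%.

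Of the 8 largest decreases 5 were of interferon and chemokine genes. Cxcl11 read 11.998, 12.11 and 12.11 at 7 h and 8.11, 8.74 and 8.04 at 22 h (difference -3.77 ± 0.15 (SE, adjusted p = 4.03e-09); -3.996 without replicate 2). Ifng read 9.32, 10.52 and 10.50 and 6.47, 7.38 and 6.68 (-3.27 ± 0.32 (SE, adjusted p = 1.22e-05); -3.54 without replicate 2). Ubd, Cxcl10 and Ido1 differed by -2.57, -2.45 and -2.42 (-2.49, -2.26 and -2.27 without replicate 2). In the type I interferon list 28 of 36 genes were lower at 22 h than at 7 h and in the type II list 9 of 13, against 8.45% of all genes. Most genes of both lists had risen at 7 h, and of all 1805 genes that had risen 533 were lower at 22 h. Without replicate 2 the list counts were 27 and 7, against 8.52% of all genes and 29% of those that had risen. Some genes that had already fallen at 7 h were lower still at 22 h, with Ogn, a matrix proteoglycan, at 11.92 to 12.15 in saline mice, 10.48 to 10.59 at 7 h and 6.91 to 8.46 at 22 h (-2.59 ± 0.28 (SE, adjusted p = 3.10e-05); -2.07 without replicate 2), and Car3 at -2.23 (-2.42 without replicate 2). Mmp13 differed by -2.21 (-2.08 without replicate 2). Of 20 acute-phase genes 2 were lower and 3 higher at 22 h, and 2 and 5 without replicate 2. Saa3 read 14.24, 14.06 and 14.36 at 22 h (0.091 ± 0.092 (SE, adjusted p = 0.526); 0.17 without replicate 2).

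Endothelial genes were higher at 22 h than at 7 h in 13 of 31 cases and lower in 4, against 3.48% and 8.45% of all genes. Without replicate 2 the counts were 15 and 4, against 8.04% and 8.52%. Of the 2554 genes that had fallen at 7 h, 194 were higher at 22 h and 246 lower, and 368 and 258 without replicate 2. Thbd read 9.47, 9.80 and 9.66 at 7 h and 11.65, 10.98 and 11.30 at 22 h (1.67 ± 0.15 (SE, adjusted p = 5.28e-06); 1.83 without replicate 2), still below every saline mouse. Tek read 8.52, 8.39 and 8.35 and 9.21, 8.85 and 9.97 (0.93 ± 0.21 (SE, adjusted p = 0.00990); 1.17 without replicate 2), and Ptprb gave 1.53 (1.70 without replicate 2). Aplnr did not pass the test (-0.024 ± 0.21 (SE, adjusted p = 0.951); 0.26 without replicate 2, adjusted p = 0.339). Dio2, which activates thyroid hormone, was on none of the lists. It read 7.18 to 7.76 in saline mice, 9.08 to 9.37 at 7 h and 12.09 to 12.78 at 22 h. Its difference between 22 h and 7 h was 3.20 ± 0.23 (SE, adjusted p = 6.99e-07), and 3.36 without replicate 2. These values are of its brightest probe set. Its 3 probe sets gave log2 differences from 0.10 to 1.73 between 7 h and saline, and 2 were called higher. Tmem119 was below its saline level at 7 h and above it at 22 h, at 10.05 to 10.27, 9.35 to 9.57 and 11.08 to 11.37 (1.73 ± 0.12 (SE, adjusted p = 3.85e-07); 1.64 without replicate 2). Kcnj8 and Ramp3, named with their lists above, gave 1.67 and 1.57 (1.85 and 1.61 without replicate 2). Mat1a and Scn3b gave 1.66 and 1.62 (1.66 and 1.78 without replicate 2). The smooth muscle list fell further, with 10 of 20 lower at 22 h than at 7 h and 1 higher, counts that were the same without replicate 2. Also lower at 22 h were 9 of 16 cardiac muscle genes (0 higher), 8 of 17 airway genes (1 higher) and 9 of 25 fibroblast and matrix genes (2 higher). Without replicate 2 these lists had 9, 8 and 10 lower and 0, 1 and 4 higher. Alveolar type 2 and type 1 genes were lower in 6 of 16 and 6 of 13 cases and higher in 0 and 3. Without replicate 2 these 2 lists had 6 and 5 lower and 1 and 3 higher.

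The arrays labelled NOS2-/- give the 7 h response in other mice. Nos2 did not separate the labels at 7 h, with 8.97, 8.999 and 8.85 in the mice labelled NOS2-/- and 8.93, 8.995 and 9.06 in wild-type mice (-0.059 ± 0.16 (SE, adjusted p = 0.843)), and whether the probe set lies in the deleted part of the gene was not stated in any source used here. Of the 1805 genes higher in wild-type mice 942 were also higher in the mice labelled NOS2-/-, 15 were lower, and 91.6% had the same sign. Of the 2554 lower genes 1471 were also lower, 3 higher, and 94.6% had the same sign. The NOS2-/- comparison rests on a single saline mouse, assumed to vary as the other groups do, and 9.39% of all genes were called higher in it and 15.6% lower. Cxcl10 read 13.55, 13.51 and 13.74 in the LPS mice labelled NOS2-/- and 7.32 in the saline mouse, and Tek read 8.57, 8.20 and 8.68 and 12.13.

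At 7 h after LPS 83 genes (0.67%) were higher and 188 (1.52%) lower in the mice labelled NOS2-/- than in wild-type mice. These counts rest on few arrays, since 119 and 335 probe sets became 4 and 19 without the wild-type LPS array of replicate 1 and 395 and 561 without the array labelled NOS2-/- of replicate 1. The neutrophil list had 6 of 24 genes lower and none higher. It was not alone, since the unfolded-protein list had 7 of 26 lower and the phagocyte oxidase list 3 of 6, with none higher in either. The integrin Itgam read 10.29, 9.96 and 10.17 in wild-type mice and 9.20, 8.99 and 8.63 in those labelled NOS2-/- (-1.20 ± 0.20 (SE, adjusted p = 0.0121)), and the oxidase part Ncf1 read 10.86, 10.81 and 10.71 and 9.61, 9.44 and 9.46 (-1.29 ± 0.10 (SE, adjusted p = 4.52e-05)). Mmp8 and Il1b differed by -0.89 and -0.82. The B cell gene Cd79a was higher in the mice labelled NOS2-/- (0.74 ± 0.12 (SE, adjusted p = 0.0127)). The calls of Il1b and Cd79a were lost without any 1 of the wild-type LPS mice (differences -0.75 to -0.90, adjusted p = 0.0617 to 0.117 and 0.68 to 0.80, adjusted p = 0.0507 to 0.0672) and without replicate 2 or 3 labelled NOS2-/-, and that of Itgam without wild-type replicate 1 or 3 or replicate 2 or 3 labelled NOS2-/- (differences -1.04 to -1.22, adjusted p = 0.0514 to 0.0863). The difference of the responses to LPS, which uses the single saline mouse, was called for 18 genes (0.145%) above and 140 (1.13%) below zero, and the lowest included Krt4 and Acta1 (-5.38 and -5.12), the genes by which that mouse stood apart. Ncf1 (-1.29 ± 0.17 (SE, adjusted p = 6.55e-04)) and Ubd (-1.45 ± 0.30 (SE, adjusted p = 0.0294)) were among the genes with a smaller rise in the mice labelled NOS2-/-, and the call of Ubd was lost with the replicate block (difference -1.38, adjusted p = 0.151) and without saline replicate 1 or 4, wild-type LPS replicate 2 or 3, or replicate 2 or 3 labelled NOS2-/- (differences -1.26 to -1.51, adjusted p = 0.0503 to 0.0738).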

How the data were processed

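Total RNA of whole lung, 1 array per mouse, was hybridised to Affymetrix MOE430A arrays. The authors background-corrected and normalized the scans with the Bioconductor package affy (method and version not given in the sources used here) and deposited log2 expression values, 1 per probe set. A microarray gives no read depth, so precision is limited by how many arrays there are. Every column of values belonged to 1 sample.

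The array holds 22690 probe sets. Leaving out 64 controls, 22626 were tested, of which 20380 name 1 gene, 691 several and 1555 none. The deposited log2 values of all 17 arrays were fitted in limma 3.58.1 (R 4.3.3) with a mean per group and its default moderated test (prior of 3.75 degrees of freedom). P-values were adjusted by Benjamini-Hochberg over all probe sets, and an adjusted p under 0.05 was a call. The P-values and each SE rest on the spread between mice within groups. It was pooled over all 17 arrays, and so also over groups outside a comparison. A gene is read from its brightest probe set that names it alone (12393 genes). The median of its probe sets, and for lists their mean, was tried as an alternative. A fold rule on the ratio of group means was set at 3-fold and 0.3-fold.

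The members and the 60 gene lists (1164 genes, 1012 of them measured) were chosen with earlier results of these data known, and no test was run over a list. Named genes are the 15 largest rises and falls among called genes whose groups do not overlap, up to 8 changes between 22 h and 7 h in each direction, the targeted gene Nos2, and members of the lists. Further members were named after their values were seen, and some genes are not reported here. Promoters are from RefSeq on GRCm38.p6. The fit was tested on simulated data. Alternatives were quantile and median scaling, a filter at the 40th percentile of mean signal, trend and robust moderation, array weights and a replicate block. Stricter thresholds, 1 probe set per gene, fewer arrays in the fit and leaving out 1 array were also tried. The arrays left out were those of the groups compared, but not the single NOS2-/- saline array. For the wild-type response at 7 h, wild-type replicate 2 at 22 h was left out as well.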

Additional observations from a re-analysis of the deposited data

Results flagged for a closer look

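Among the 376 genes named, 30 had 1 of the 4 saline mice far from the other 3 by Dixon's test, which chance gives in about 1 of 20 groups. Saline replicate 1 lay above the other mice for Asns at 9.55 (others at 9.46), Npr3 at 11.04 (others 10.20 to 10.32), Scgb1a1 at 14.89 (others 14.74 to 14.76) and Slfn4 at 9.29 (others 8.40 to 8.53). Saline replicate 1 lay below the other mice for Bhlhe41 at 7.17 (others 7.34 to 7.36), Emcn at 9.45 (others 9.93 to 9.999), Tppp3 at 11.53 (others 11.91 to 11.97) and Zfp36 at 10.58 (others 11.10 to 11.20). Saline replicate 2 lay above the other mice for Abca3 at 11.66 (others at 11.51), C1qa at 10.25 (others 10.07 to 10.10), Cd2 at 7.86 (others 7.52 to 7.56), Cd8b1 at 7.25 (others 7.06 to 7.07) and Pts at 8.73 (others 8.33 to 8.38). Saline replicate 2 lay below the other mice for Cxcr3 at 8.14 (others 8.34 to 8.35) and Usp18 at 9.27 (others 9.33 to 9.34). Saline replicate 3 lay above the other mice for Fcgr1 at 7.97 (others 7.39 to 7.45), Irf7 at 10.06 (others 9.11 to 9.18), Nfkbia at 13.29 (others 13.13 to 13.16), Nos3 at 8.86 (others 8.65 to 8.69) and Slc39a14 at 9.08 (others 8.87 to 8.90). It also lay above the other mice for Txnrd1 at 10.48 (others 10.20 to 10.24). Saline replicate 3 lay below the other mice for Cd163 at 7.12 (others 7.46 to 7.51), Chil3 at 12.77 (others 13.07 to 13.12), Ifit1 at 9.16 (others 9.49 to 9.54) and Mmp13 at 5.26 (others 5.79 to 5.85). Saline replicate 4 lay above the other mice for Ramp2 at 13.72 (others 13.66 to 13.67). Saline replicate 4 lay below the other mice for Arntl at 7.66 (others 7.80 to 7.82), Calcrl at 10.28 (others 11.43 to 11.59), H2-DMa at 9.95 (others 10.16 to 10.20) and Prkg1 at 7.91 (others 8.05 to 8.08).

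The responses at 22 h and 7 h differed in limma's test of the difference itself. At 22 h the log2 values of named genes differed from those at 7 h by -3.77 for Cxcl11, -3.27 for Ifng, -2.59 for Ogn, -2.57 for Ubd, -2.45 for Cxcl10, -2.42 for Ido1, -2.23 for Car3, -2.21 for Mmp13 and -0.57 for Tef, and by 3.20 for Dio2, 1.73 for Tmem119, 1.67 for Kcnj8, 1.67 for Thbd, 1.66 for Mat1a, 1.62 for Scn3b, 1.57 for Ramp3, 1.53 for Ptprb and 0.93 for Tek. Over all genes 431 were called higher and 1047 lower at 22 h.

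The responses to LPS at 7 h of mice labelled NOS2-/- and wild-type mice also differed in limma's test of the interaction, with 18 genes above and 140 below zero. Among the genes named the differences of the responses, as NOS2-/- minus wild type, were -5.38 for Krt4, -5.12 for Acta1, -1.45 for Ubd and -1.29 for Ncf1 on the log2 scale. All of these rest on the single NOS2-/- saline mouse.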

How the results depend on the processing

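Under the alternatives run for it, no named gene's called difference between LPS at 7 h and saline, between 22 h and 7 h, or in the comparisons of NOS2-/- with wild type changed sign. The alternatives for single genes of the NOS2-/- comparisons, and the gene counts and clock genes without replicate 2 at 22 h, were chosen after seeing the data. The main counts of probe sets, higher then lower, are 3257 and 4052 for wild-type LPS at 7 h against saline, 713 and 1738 for 22 h against 7 h, 119 and 335 for NOS2-/- against wild type at 7 h, 1987 and 3108 for the response at 7 h in NOS2-/-, and 31 and 216 for the difference of the responses. The wild-type response gave 3417 and 4274 after quantile normalization, 3532 and 3888 after median scaling, 2866 and 3256 without dim probe sets, 2787 and 3254 in wild-type arrays only, 4190 and 5522 in its 7 arrays alone, and 1825 and 2605 with 1 probe set per gene. At least 2-fold it gave 866 and 506, so that 63.1% were higher in place of 44.6%, and the fold rule at 2-fold and 0.5-fold gave the same 866 and 506. Leaving out 1 array gave 2742 to 4382 and 3187 to 6041, both highest without wild-type replicate 2 at 22 h, whose weight in limma's array weights was 0.0438. Array weights used the gene-by-gene method, chosen after seeing the data because the default did not converge, and gave 4566 and 6656.

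For 22 h against 7 h the counts were 1235 higher under quantile normalization, 2266 higher with array weights, 279 and 978 at an adjusted p under 0.01, 37 and 215 at least 2-fold, 458 and 1093 with 1 probe set per gene, 343 and 1081 in wild-type arrays only, and 344 to 1676 and 1107 to 2513 with 1 array left out. For NOS2-/- against wild type at 7 h they were 213 higher under quantile normalization, 188 and 615 under median scaling, 5468 and 4478 with array weights, 6 and 31 at an adjusted p under 0.01, 3 and 11 at least 2-fold, and 4 to 395 and 19 to 561 with 1 array left out. For the response in NOS2-/- they were 4053 and 4935 with array weights, 1289 and 2041 at an adjusted p under 0.01, 724 and 753 at least 2-fold, 1196 and 1980 with 1 probe set per gene, and 1611 to 1956 and 2639 to 3017 with 1 array left out. For the difference of the responses they were 67 higher under quantile normalization, 1263 and 1551 with array weights, 7 and 107 at an adjusted p under 0.01, 4 and 113 at least 2-fold, 19 higher with 1 probe set per gene, and 14 to 39 and 146 to 229 with 1 array left out. With 1 array left out the fold rule gave 417 to 430 and 89 to 109. The NOS2-/- comparisons were not run without wild-type replicate 2 at 22 h, and the cause of these changes was not tested.

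Deviations of LPS and saline mice of the same replicate number correlated at -0.0098, -0.0038 and -0.076, against -0.067 to 0.078 for unlike numbers. No pairing by number was seen, but groups this small cannot decide whether mice were paired. With the replicate number as a block, the wild-type response at 7 h gave 2887 and 3501, NOS2-/- against wild type 50 and 200, and the difference of the responses 11 and 125. Without wild-type replicate 2 at 22 h, 15 of the named genes not called became called (Bmpr1a, Bmpr2, Ciita, Cry2, Fos, Id1, Kcna5, Kcnma1, Ms4a1, Nos1, Nr1d2, Orm2, Per1, Pts and Tal1). Of the named genes, 22 that were called have at least 1 probe set that was not, and 0 have probe sets called in opposite directions. Scaling moved the median of all probe sets by 0.018 at most on the log2 scale.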
